A study of Bos taurus with 30 samples.

Results

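Pregnancy-associated glycoproteins (PAGs) were followed in endometrial RNA of pregnant cows through 6 members of the family, PAG2, PAG8, PAG9, PAG14, PAG18 and PAG19. They were found by gene symbol in the annotation of the array platform. Each had 1 probe, and the 6 genes stood among 8073 genes with a probe of a single symbol. All 6 probes had a value on all 30 arrays and all passed the filter on missing values, which left 13818 probes.

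The study set the caruncle, the part of the uterine lining to which the placenta attaches in ruminants, against the intercaruncle, the lining between attachment sites, in cows that carried 1 of 3 kinds of pregnancy. SCNT pregnancies came from somatic cell nuclear transfer, the transfer of a cell's nucleus into an egg without one, IVF-ET pregnancies from embryos fertilised in vitro and transferred, and AI pregnancies, the reference, from artificial insemination. There were 5 animals and 10 arrays in each group, and each array held both tissues of 1 cow, one labelled with Cy5 and the other with Cy3. Age, breed and day of gestation are not given in the sources used here. In 14 of 15 cows the dyes were exchanged on the second array. IVF-ET replicate 3 carried the same orientation on both and was left out of every fit and group mean.

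PAGs are secreted glycoproteins of the ruminant trophoblast, the outer cell layer of the conceptus, and belong to the family of pepsin-like aspartic proteases, although many are thought to lack protease activity. The older branch of the family, with PAG2 and PAG8, is made throughout the trophoblast. The younger branch, with PAG9, PAG14, PAG18 and PAG19, is made by binucleate trophoblast cells, which fuse with the maternal epithelium and release PAGs into the mother's blood, where they serve as a test of pregnancy. In bulk tissue, fewer cells of a type and less RNA per cell cannot be told apart.

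In the RefSeq table of assembly ARS-UCD2.0 all 6 genes matched by gene ID and lay on chromosome 29. From the first to the last PAG gene that chromosome held 31 protein-coding genes, of which 20 had a PAG symbol or synonym. PAG2 (gene ID 337897) lay between PAG10 and PAG12, PAG8 (337902) between LOC524173 and the pepsinogen gene PGA5, and PAG9 (337903) between LOC520130 and PAG3. PAG14 (337908) lay between PAG4 and PAG16, PAG18 (337911) between LOC504812 and PAG7, and PAG19 (337913) between LOC281964 and MGC157408. The members are close paralogs, and probe sequences were not used here, so how far a probe also binds RNA of another PAG was not tested.

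Values are the deposited log ratios of both tissues, taken as log2, after each array was centred on its median and duplicate spots were averaged. The labels do not state which tissue is on top or the base of the logarithm. The values were read as already turned to the tissues, so that a positive value has the same meaning on both arrays of a cow, and no side is given a tissue. Over all probes, arrays had SDs of 0.257 to 0.831, and both arrays of a cow correlated at 0.0838 to 0.652 in SCNT cows, at -0.318 to 0.300 in the 4 fitted IVF-ET cows and at -0.216 to 0.183 in AI cows. SCNT replicate 5 stood apart with the highest agreement (0.652) and the widest spread, and a larger share of its probes lay at or below -1 than in any other cow. In IVF-ET replicate 4, at -0.318, probes tended to take opposite signs in the 2 dye orientations.

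Strong PAG ratios occurred in 2 of the 14 fitted cows, both SCNT. In SCNT replicate 3, 5 of 6 members lay at or below -1, against 0.427% of all probes of that cow, and in SCNT replicate 4 it was 3 of 6, against 0.253%. On both arrays alike it was 4 of 6 in SCNT replicate 3, against 0.239% of probes, and 2 of 6 in SCNT replicate 4, against 0.123%. In SCNT replicates 1, 2 and 5 it was 0 of 6, against 0.586%, 0.261% and 7.96% of probes. In the 9 fitted IVF-ET and AI cows it was also 0 of 6, against 0.0579% to 0.659%. The median of the 6 genes was -1.73 in SCNT replicate 3, -1.14 in SCNT replicate 4, and from -0.39 to 0.15 in each of the others. Both cows were singled out by their values, so they are given one by one and no test compares them with the rest.

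**Figure D1:**
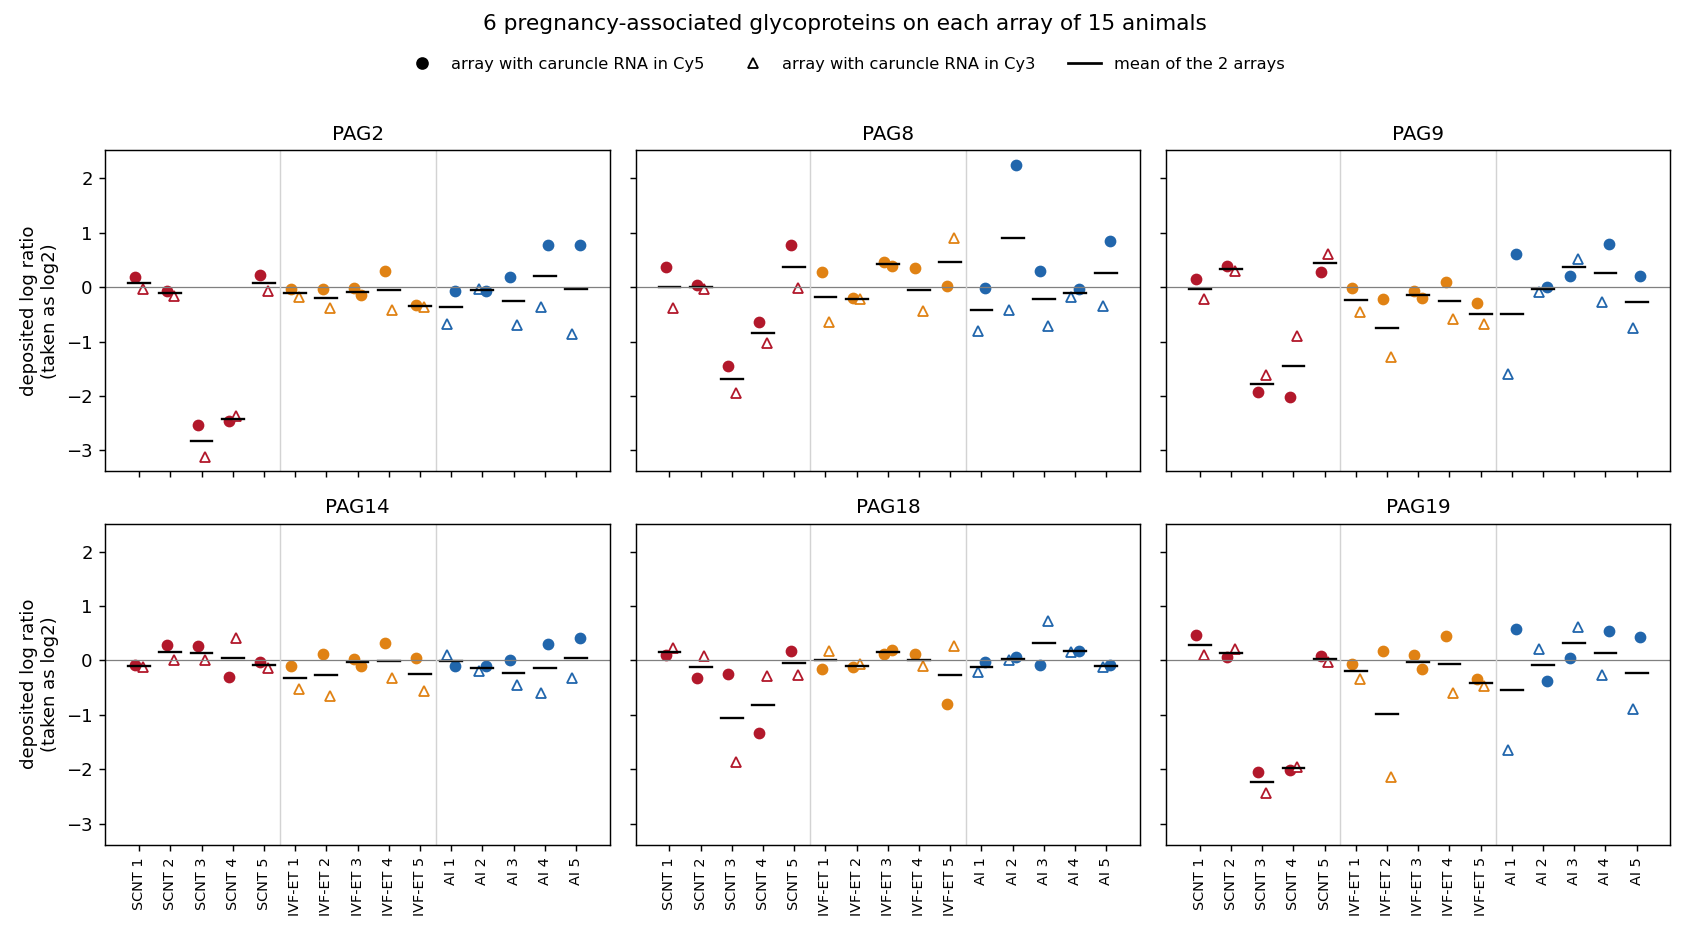
Deposited log ratio (vertical axis, taken as log2) of 6 PAG genes on each of 30 arrays, by cow along the horizontal axis, with SCNT at left, then IVF-ET, then AI. Filled circles are arrays with caruncle RNA in Cy5, open triangles arrays with caruncle RNA in Cy3, and bars the mean of both arrays. SCNT replicates 3 and 4 lie far below 0 for PAG2 and PAG19 in both dye orientations, and PAG14 stays within 0.66 of 0 on every array.

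PAG2 showed the strongest ratio of the 6. With caruncle RNA in Cy5 and then in Cy3, it had values of -2.52 and -3.12 in SCNT replicate 3 and of -2.46 and -2.37 in SCNT replicate 4. The other SCNT cows had 0.20 and -0.034 (replicate 1), -0.063 and -0.16 (replicate 2), and 0.22 and -0.072 (replicate 5). The gap between both orientations was thus small beside the distance from the other SCNT cows. In IVF-ET cows the pairs were -0.033 and -0.19, -0.038 and -0.37, 0.30 and -0.41, and -0.32 and -0.36 (replicates 1, 2, 4 and 5). In AI cows they were -0.066 and -0.68, -0.062 and -0.026, 0.18 and -0.70, 0.77 and -0.36, and 0.78 and -0.85 (replicates 1 to 5). No array outside SCNT replicates 3 and 4 came below -0.85. As cow means, -2.82 in SCNT replicate 3 and -2.42 in SCNT replicate 4 correspond to 7.06-fold and 5.33-fold differences between the tissues. Those values were the second lowest and the lowest of 13818 probes in the 2 cows.

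The group means of PAG2 were -1.04 ± 1.45 in SCNT (SD, n = 5), -0.18 ± 0.12 in IVF-ET (SD, n = 4) and -0.10 ± 0.22 in AI (SD, n = 5). The SCNT median was -0.11, so the SCNT mean lay far from the middle cow. SCNT cows overlapped AI cows, since SCNT replicates 1, 2 and 5 (0.082, -0.11 and 0.074) lay within the AI range of -0.37 to 0.21.

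PAG8, the other member of the older branch, shared the direction at a smaller size. It had -1.45 and -1.94 in SCNT replicate 3 and -0.64 and -1.03 in SCNT replicate 4 (caruncle in Cy5, then in Cy3). SCNT replicates 1, 2 and 5 had means of -0.0034, -0.0022 and 0.38. PAG8 ranked 15th and 56th from the lowest in SCNT replicates 3 and 4. IVF-ET means were -0.18, -0.21, -0.048 and 0.47, and AI means were -0.41, 0.91, -0.21, -0.11 and 0.25. The highest of these rest on 1 array each: AI replicate 2 had 2.25 and -0.43, and IVF-ET replicate 5 had 0.032 and 0.91, with duplicate spots 2.14 apart on the array of 0.91. Group means were -0.43 ± 0.83 in SCNT, 0.0078 ± 0.32 in IVF-ET and 0.088 ± 0.52 in AI (SD, n = 5, 4 and 5). All 3 groups overlapped.

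Among the younger branch, PAG19 came nearest to PAG2. It had -2.04 and -2.43 in SCNT replicate 3, and -2.01 and -1.96 in SCNT replicate 4. SCNT replicates 1, 2 and 5 had means of 0.29, 0.13 and 0.028. PAG19 ranked 8th and 6th from the lowest in SCNT replicates 3 and 4, at 4.72-fold and 3.96-fold between tissues. IVF-ET means were -0.19, -0.98, -0.075 and -0.41, and AI means were -0.54, -0.083, 0.33, 0.14 and -0.23. Low single arrays also occurred outside SCNT, at -2.14 in IVF-ET replicate 2 and -1.64 in AI replicate 1, but the array of the opposite orientation of those cows read 0.17 and 0.57. Group means were -0.75 ± 1.25 in SCNT, -0.42 ± 0.40 in IVF-ET and -0.077 ± 0.33 in AI (SD, n = 5, 4 and 5).

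PAG9 had -1.93 and -1.61 in SCNT replicate 3 and -2.02 and -0.89 in SCNT replicate 4, ranks 13 and 14 from the lowest. SCNT replicates 1, 2 and 5 had means of -0.037, 0.34 and 0.45. IVF-ET means were -0.23, -0.75, -0.24 and -0.48, all on the negative side, and AI means were -0.50, -0.037, 0.37, 0.26 and -0.27. SCNT replicates 1, 2 and 5 thus lay above every fitted IVF-ET cow while SCNT replicates 3 and 4 lay below them. Group means were -0.49 ± 1.04 in SCNT, -0.43 ± 0.24 in IVF-ET and -0.037 ± 0.36 in AI (SD, n = 5, 4 and 5).

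PAG18 was weaker and its arrays disagreed in size. It had -0.24 and -1.87 in SCNT replicate 3 and -1.34 and -0.28 in SCNT replicate 4, with means of -1.06 and -0.81. Each of those cows thus had 1 strong and 1 weak array, with the strong one in opposite orientations. SCNT replicates 1, 2 and 5 had means of 0.16, -0.12 and -0.050, IVF-ET cows lay between -0.27 and 0.013, and AI cows between -0.12 and 0.32. Group means were -0.37 ± 0.53 in SCNT, -0.086 ± 0.13 in IVF-ET and 0.061 ± 0.19 in AI (SD, n = 5, 4 and 5).

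PAG14 did not share the pattern. It had 0.27 and 0.0078 in SCNT replicate 3 and -0.31 and 0.41 in SCNT replicate 4, with means of 0.14 and 0.046. SCNT replicates 1, 2 and 5 had -0.10, 0.15 and -0.083. IVF-ET means were -0.32, -0.27, -0.0012 and -0.25, and AI means were -0.0016, -0.15, -0.22, -0.14 and 0.049. Group means were 0.029 ± 0.12 in SCNT, -0.21 ± 0.14 in IVF-ET and -0.093 ± 0.11 in AI (SD, n = 5, 4 and 5). In SCNT replicates 3 and 4 it ranked 10330th and 8403rd from the lowest, past the middle of all probes.

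Across groups, the order of the means from lowest was SCNT, IVF-ET, AI for PAG2, PAG8, PAG9, PAG18 and PAG19, and IVF-ET, AI, SCNT for PAG14. With the sign of the AI arrays turned, PAG8 averaged -0.088 in AI, below IVF-ET, and PAG14 0.093, above SCNT. Without SCNT replicate 3, SCNT lay above IVF-ET for PAG9, at -0.18, and for PAG19, at -0.38. Without SCNT replicates 3 and 4, SCNT lay above both other groups for PAG2 (0.014), PAG8 (0.12), PAG9 (0.25) and PAG19 (0.15). PAG18 averaged -0.0012, between IVF-ET and AI. Those cows were chosen by their low values, so a rise was bound to follow, but the place of SCNT at the low end rests on them. No pair of neighbouring groups in these orders was separated by the tests below. PAG2, PAG9, PAG14 and PAG19 were below 0 in 4 of 4 fitted IVF-ET cows, a state found in 11% of all probes. In SCNT and AI cows 0 of 6 members were below 0 throughout their group, against 6.95% and 2.27% of all probes.

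The dye exchange set 2 orientations side by side within each cow. SCNT replicates 3 and 4 were singled out by low means over both arrays, so their agreement is no separate check. The counts that follow have no share of all probes beside them. Members lay on the same side on both arrays in 6 of 6 cases in SCNT replicate 3, with PAG14 positive and the others negative. In SCNT replicate 4 it was 5 of 6. In SCNT replicates 1, 2 and 5 it was 3, 4 and 2 of 6, in the fitted IVF-ET cows 4, 4, 0 and 4, and in AI cows 3, 3, 2, 2 and 1. Of 84 pairs of arrays, 34 had a positive value with caruncle RNA in Cy5 and a negative one with it in Cy3, and 7 had the opposite arrangement. By group the first arrangement made up 8 of 30 pairs in SCNT, 10 of 24 in IVF-ET and 16 of 30 in AI. The distance of each orientation from the cow's mean (caruncle in Cy5 minus that mean) averaged 0.24 ± 0.25 for PAG2, 0.33 ± 0.39 for PAG8 and 0.27 ± 0.45 for PAG19 (SD, n = 14), and was above 0 in 12, 13 and 10 of 14 cows. It was smaller for PAG9 (0.19 ± 0.41, above 0 in 10) and PAG14 (0.16 ± 0.22, above 0 in 12). For PAG18 it was -0.045 ± 0.34, above 0 in 7 of 14.

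The reading of the values decides the main pattern. Read as dye ratios, so that the arrays with caruncle RNA in Cy3 are turned round, PAG2 would have 0.30 in SCNT replicate 3 and -0.042 in SCNT replicate 4, and PAG19 0.19 and -0.025, because strong values of the same sign cancel. The largest values would then lie in other cows. PAG8 would have 1.34 in AI replicate 2, and PAG19 1.15 in IVF-ET replicate 2 and 1.11 in AI replicate 1. PAG9 would have 1.10 in AI replicate 1. Not all members cancel in the SCNT cows, since PAG18 would keep 0.81 in SCNT replicate 3 and PAG9 -0.57 in SCNT replicate 4. Neither reading is stated in the labels.

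**Figure D2:**
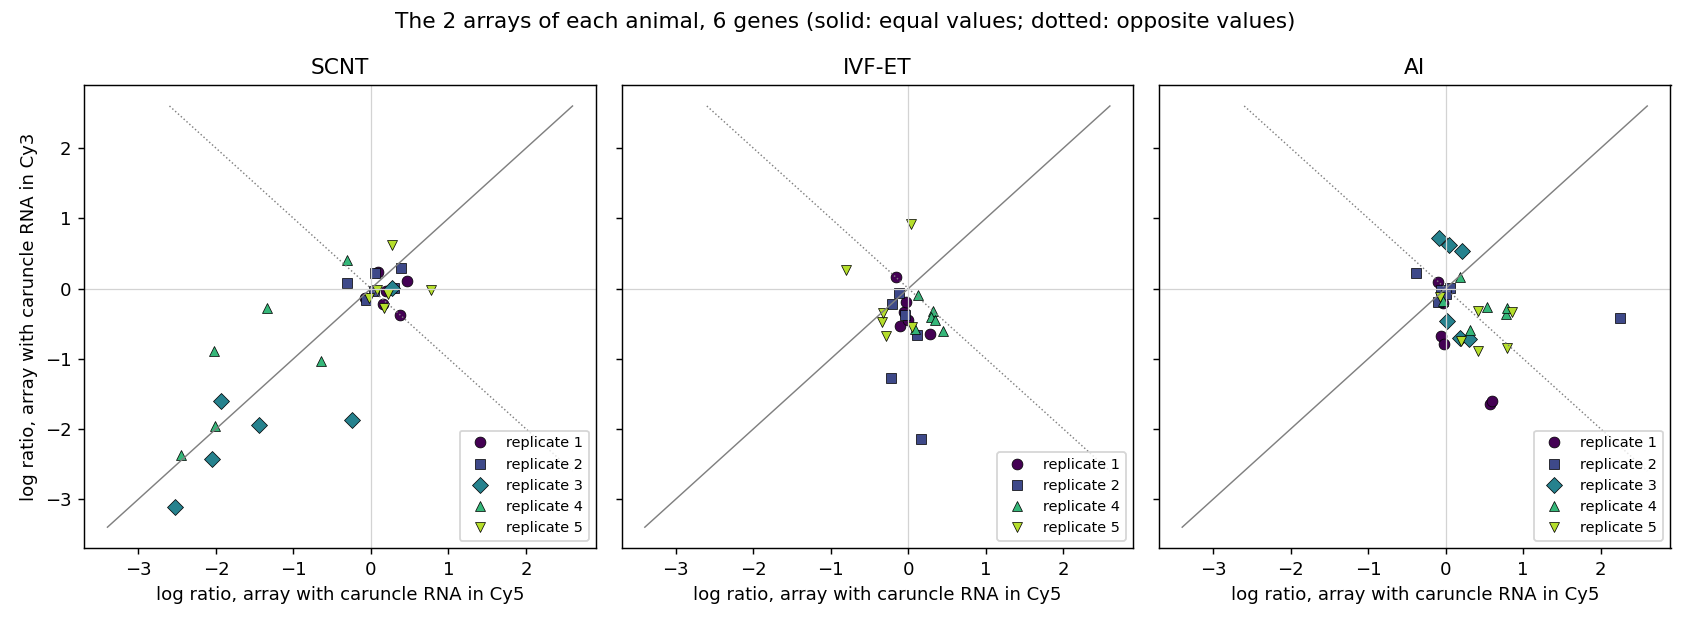
Log ratio of each of the 6 genes on the array with caruncle RNA in Cy5 (horizontal axis) against the array with caruncle RNA in Cy3 (vertical axis), 1 panel per group and 1 symbol per cow. Points on the solid line have equal values in both orientations, and points on the dotted line have opposite values. PAG2 and PAG19 of SCNT replicates 3 and 4 lie near the solid line, down to -2.52 and -3.12, while PAG18 of both cows and PAG9 of SCNT replicate 4 lie off it and PAG14 of SCNT replicate 4 has opposite signs. In AI cows 16 of 30 points lie at lower right.

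The probes that stood at or below -1 on all 4 arrays of SCNT replicates 3 and 4 numbered 9 of 13818 (0.0651%). PAG2 and PAG19 were among them, with highest values over the 4 arrays of -2.37 and -1.96. TKDP1, a trophoblast Kunitz domain protein, and PAG17 were the other trophoblast products, followed by the gap junction gene GJA1, the imprinted RNA gene H19, the collagen gene COL6A3 and 2 unnamed probes. These 9 were listed because of their values and carry no test. Among the 10 lowest probes of SCNT replicate 3, 4 were PAG probes, 2 of them of PAG17, and among those of SCNT replicate 4 it was 3. All 13818 probes held 6 of the members and 10 of other PAG genes.

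The other PAG genes on the array were 7 of 15 listed. PAG1 (as LOC281964, of which RefSeq gives PAG1 as a synonym), the best known PAG in the blood of pregnant cows, had -1.66 in SCNT replicate 3 and -1.13 in SCNT replicate 4. PAG17, with 3 probes, had -1.89, -2.02 and -1.02 in SCNT replicate 3, and -1.74, -0.99 and -0.44 in SCNT replicate 4. PAG6 had -1.24 and -0.55 in those cows. Of 2 PAG7 probes, 1 had -1.43 and -0.76 and the other -0.66 and -0.24. PAG4 (-0.46 and 0.16), PAG5 (-0.44 and -0.17) and PAG20 (-0.21 and -0.14) stayed nearer 0, as PAG14 did. Probes of the same gene thus differed in size, though not in side, in both cows. With limma, 0 of 7 passed in any comparison, and the lowest adjusted p of their 10 probes was 0.215.

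**Figure D3:**
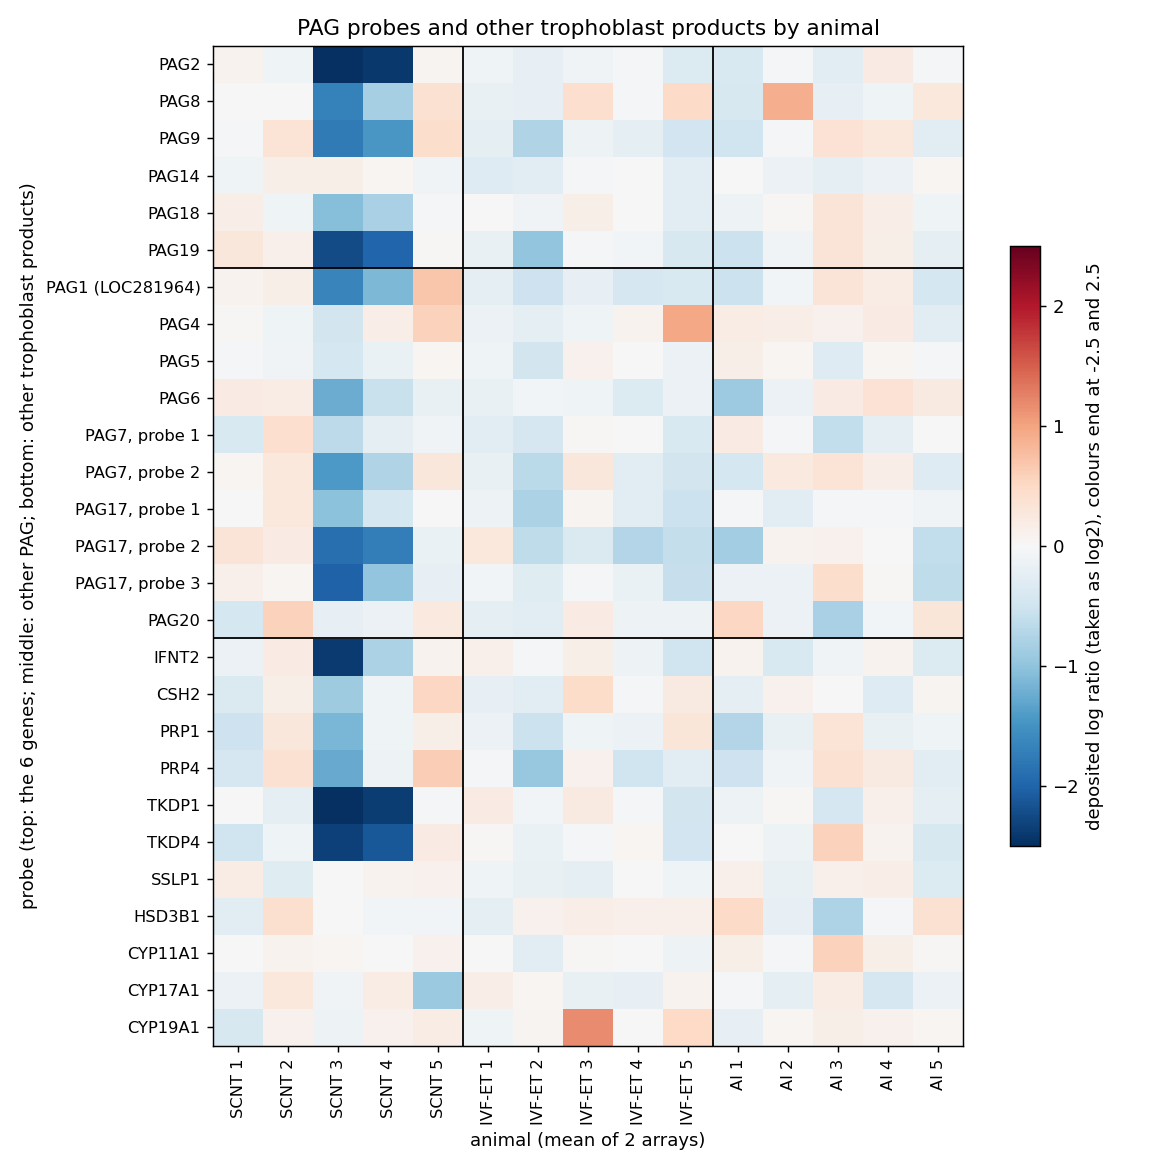
Mean log ratio over both arrays (colour, taken as log2, blue negative and red positive) for each cow (columns, SCNT then IVF-ET then AI) and probe (rows). The top block holds the 6 genes, the middle block other PAG probes and the lower block other trophoblast products. SCNT replicates 3 and 4 carry the dark cells, for PAG2, PAG19, PAG17 probe 2, TKDP1 and TKDP4, and PAG14, PAG20 and CYP11A1 are pale in both.

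Of 26 other listed trophoblast products, 11 were measured, and 0 passed in any comparison. The trophoblast Kunitz domain proteins TKDP1 and TKDP4 had -2.72 and -2.34 in SCNT replicate 3 and -2.38 and -2.12 in SCNT replicate 4. IFNT2, an interferon tau gene, whose product is the conceptus signal of early pregnancy in ruminants, had -2.39 and -0.79. The placental lactogen gene CSH2 had -0.90 and -0.11, and the prolactin-related genes PRP1 and PRP4 had -1.15 and -1.25 in SCNT replicate 3 but -0.11 and -0.13 in SCNT replicate 4. SSLP1, another of the listed products, stayed near 0 at -0.011 and 0.086. SCNT replicate 3 thus had more trophoblast products at or below -1 than SCNT replicate 4. It was 5 of 11 against 2 of 11, beside 0.427% and 0.253% of all probes. The steroid enzyme genes HSD3B1, CYP11A1, CYP17A1 and CYP19A1, of which the placenta also makes use, lay between -0.14 and 0.18 in both cows.

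Among transcription factors of the trophoblast, 9 of 12 were measured and 0 passed. HAND1, which in mice is needed for trophoblast giant cells, had -1.78 in SCNT replicate 3 and -0.52 in SCNT replicate 4. TFAP2A had -0.092 and 0.043, GATA3 had -0.48 and 0.16, and CDX2, which in mice sets up the trophoblast lineage, had 0.17 and -0.13. Of 9 other aspartic proteases 2 were measured, the lysosomal cathepsin D gene CTSD and the pepsinogen gene PGA5. They had 0.28 and 0.21 in SCNT replicate 3 and 0.035 and -0.023 in SCNT replicate 4. CTSD was low in another cow, SCNT replicate 5, at -2.15, where the 6 PAG genes lay between -0.083 and 0.45.

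Among 8631 probes of a single symbol with a value in all 14 cows, the 10 most like the mean of the 6 genes were taken by Pearson's r. They were TKDP1 (0.931), TKDP4 (0.917), LOC281964 (0.911), LOC404105 (0.907), a PAG7 probe (0.904), 2 PAG17 probes (0.895 and 0.880), the calcium-binding protein gene GCA (0.837), IFNT2 (0.834) and SRGN (0.807), which encodes the proteoglycan serglycin. The next probe had 0.792. The cows fall into separate clusters, so these coefficients mainly rank probes by SCNT replicates 3 and 4 and carry no p. Over the 12 cows without them, r dropped to 0.094 for TKDP1, 0.25 for TKDP4, 0.050 for LOC404105 and 0.027 for IFNT2. It was 0.801 for LOC281964, 0.922 for PAG7, 0.658 and 0.428 for PAG17, 0.659 for GCA and 0.793 for SRGN. Of the 10 probes, 1 was again among the 10 most alike when ranked without these 2 cows. Among the 6 genes, the 12 cows gave r of 0.869 between PAG9 and PAG19, 0.666 between PAG18 and PAG19 and 0.523 between PAG2 and PAG19, and values of -0.24 to 0.27 for pairs with PAG8 or PAG14. All these coefficients share arrays, and related probes may share RNA.

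Group tests were fitted with limma over all 13818 probes, two-sided, with Benjamini-Hochberg adjustment and a threshold of 0.05. For SCNT against 0, 0 of 6 members passed, against 1.83% of all probes, while 3 of 6 had an unadjusted p under 0.05, against 14.8%. PAG2 averaged -1.04 (SE 0.34, adjusted p = 0.137), with 3 of 5 SCNT cows below 0. PAG18 averaged -0.37 (SE 0.14, adjusted p = 0.205) and PAG19 -0.75 (SE 0.31, adjusted p = 0.249). The SCNT means of 5 members were below 0 and their median was -0.46, beside 0.000315 over all probes.

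The SCNT mean of PAG2 rests on 2 cows. Without SCNT replicate 3 PAG2 averaged -0.59 (limma adjusted p = 0.367), without SCNT replicate 4 it was -0.69 (0.348), and without both it was 0.014. PAG19 averaged -0.38, -0.45 and 0.15 in the same fits. The fit without both cows was added after their low values were seen. A mean nearer 0 was bound to follow, so no p is given for it. An exact sign-flip permutation test on the 5 SCNT cows gave p = 0.3125 for PAG2, where the smallest possible is 0.0625. Over the 36 exact tests of 6 genes and 6 comparisons the lowest Benjamini-Hochberg value was 0.643. No single gene could have passed there, since the smallest possible p between groups was 0.00794 before adjustment over 36 tests.

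For SCNT minus AI, 0 of 6 members passed with limma, against 0.97% of all probes, and 1 had an unadjusted p under 0.05, against 12.9% of all probes. With only SCNT and AI in the fit, 0 of 6 had an unadjusted p under 0.05, and the lowest limma adjusted p was 0.515. PAG2 differed by -0.94 (SE 0.47, adjusted p = 0.428) and PAG18 by -0.44 (SE 0.20, adjusted p = 0.367). Without SCNT replicates 3 and 4, left out because of their low values, these differences were 0.11 and -0.062. With the sign of the AI arrays turned, the PAG2 difference was -1.14 (adjusted p = 0.762). For SCNT minus IVF-ET, 0 of 6 passed, against 0% of probes, with 1 at an unadjusted p under 0.05, against 4.39%, which was PAG14 at 0.24 (SE 0.11, adjusted p = 0.915). PAG2 differed by -0.86 there (SE 0.50, adjusted p = 0.915). With only SCNT and IVF-ET in the fit, 0 of 6 had an unadjusted p under 0.05.

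For IVF-ET against 0, 0 of 6 passed with limma, against 0% of probes, and 1 had an unadjusted p under 0.05, against 7.94%, which was PAG14 at -0.21 (SE 0.082, adjusted p = 0.522). With IVF-ET alone in the fit 3 of 6 did, with no share of all probes beside it, and the lowest limma adjusted p was 0.125. For AI against 0, 0 of 6 passed, against 0% of probes, with 0 at an unadjusted p under 0.05, against 4.42%. For IVF-ET minus AI, 0 of 6 passed, against 0.0579% of probes, with 0 at an unadjusted p under 0.05, against 8.39%. The 6 differences were all below 0, at a median of -0.13, beside 50.8% of all probes below 0 and a median of -0.0042, and PAG8 was at 0.096 with the AI sign turned. Over all 14 cows against 0, 0 of 6 passed, against 0% of probes, with 2 at an unadjusted p under 0.05, against 9.53%. These comparisons share cows, so their values are not independent.

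Markers of cell types were read in the same cows. Of 13 trophoblast markers 8 were measured, all of them among the trophoblast products and transcription factors above, so they are no separate readout. Their median was -1.02 in SCNT replicate 3, with 4 of 8 at or below -1, against 0.427% of all probes. In SCNT replicate 4 the median was -0.12, with 2 of 8, against 0.253%. It lay between -0.32 and 0.16 in the other 12 fitted cows. Stromal markers, 7 of 7 measured, had medians of -1.28, -0.42, -0.62, -1.05 and -0.87 in SCNT replicates 1 to 5, between -0.88 and -0.46 in fitted IVF-ET cows and between 0.060 and 0.62 in AI cows. With limma, 4 of 7 stromal markers passed on the negative side for SCNT against 0, and 4 of 7 for SCNT minus AI. For SCNT against 0 these were the collagen genes COL1A1 (mean -0.85), COL1A2 (-0.85) and COL3A1 (-1.70) and the WNT inhibitor gene SFRP1 (-1.37), with adjusted p from 0.0115 to 0.0353. The other stromal markers did not pass there, with means of -0.89 for DCN, -0.20 for LUM and -0.053 for VIM. SCNT replicates 1 and 5 thus had low stromal medians with PAG ratios near 0. In SCNT replicate 5, however, LUM had 0.079 and VIM 0.42, and 7.96% of all probes lay at or below -1. Gland epithelium markers (6 of 8 measured) had medians of -0.032 and 0.19 in SCNT replicates 3 and 4, leukocyte markers (6 of 6) 0.12 and 0.10, and blood markers (2 of 6) -0.060 and 0.046. One leukocyte marker passed on the negative side for SCNT against 0, the immunoglobulin heavy chain gene IGHG1 (mean -1.55, limma adjusted p = 0.0236). It had -1.40 and -1.22 in SCNT replicates 3 and 4, and ran from -3.73 to -0.40 over the other SCNT cows. The part of trophoblast, stromal and leukocyte RNA in the PAG ratios was not tested.

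**Figure D4:**
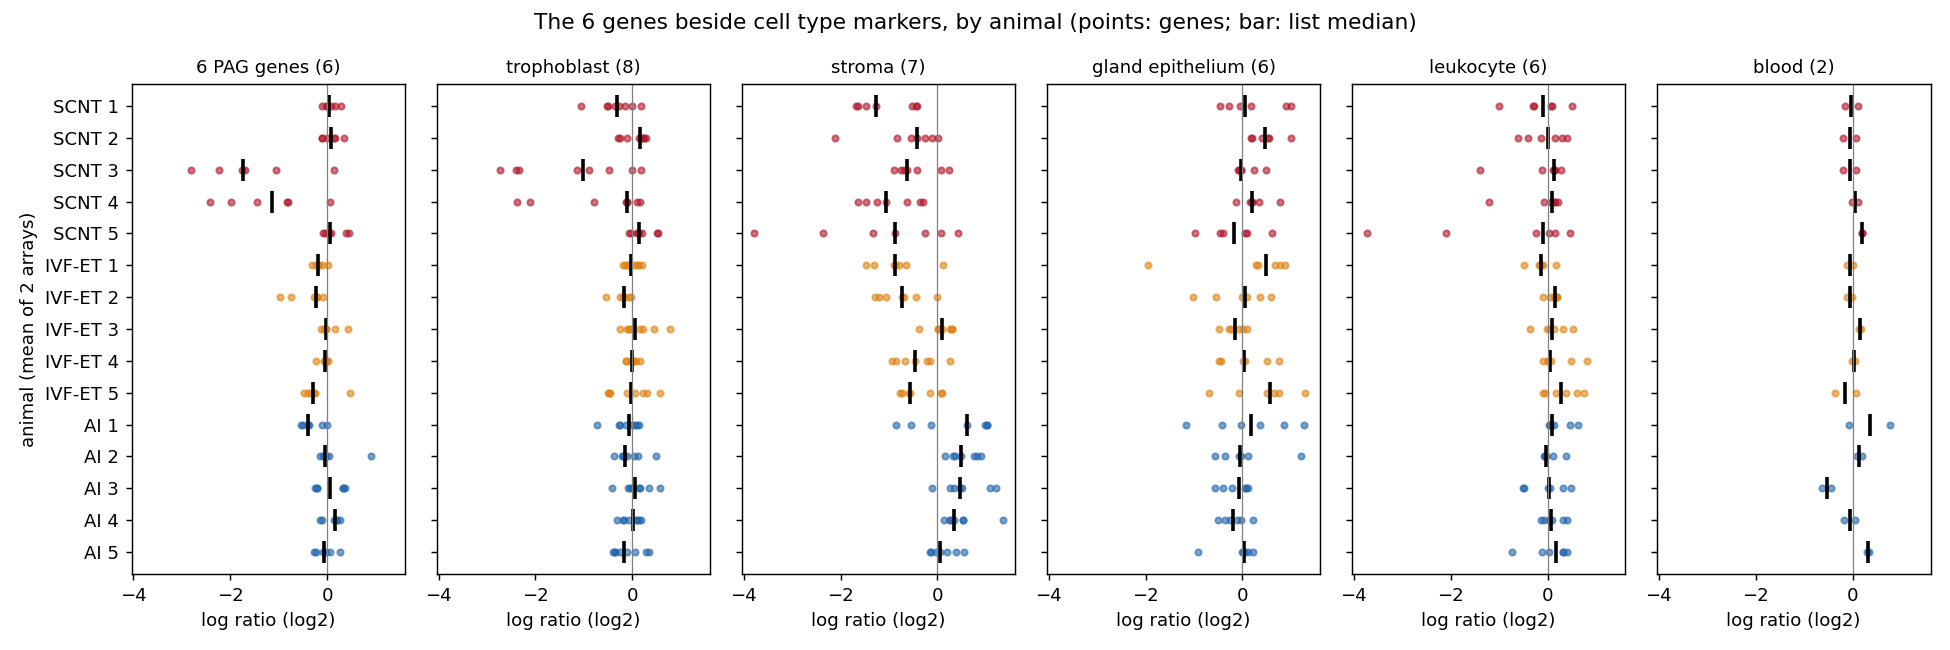
Log ratio (horizontal axis, taken as log2) of the 6 PAG genes and of 5 marker lists in each cow (rows, SCNT at top, then IVF-ET, then AI). Points are genes, bars list medians, and the number of measured genes is in brackets. PAG and trophoblast points reach below -2 in SCNT replicates 3 and 4 alone, whereas stromal medians are negative in all 5 SCNT cows and positive in all 5 AI cows.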

How the data were processed

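RNA was taken from caruncle and intercaruncle of 15 cows. Per the labels' protocols it was extracted with Trizol and RNeasy columns and copied into aminoallyl cDNA, to which Cy3 or Cy5 was then attached. The deposited values are log ratios per spot, taken as log2. The authors' background correction, normalisation and channel order are not given in the sources used here, and intensities were not used, so signal over background is unknown.

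Each of 30 arrays (26744 to 27643 spots with a value) was centred on its median and adjacent duplicate spots were averaged, giving 13824 probes from 27648 spots, of which 8645 had 1 symbol, 105 several and 5074 none. Both arrays of a cow were averaged. Probes with a value in at least 4 of 5 SCNT and AI cows and 3 of 4 IVF-ET cows were tested (13818), in 7 comparisons with a mean per group. limma 3.58.1 in R 4.3.3 was used, after a test on simulated data. The limma p-values measure the spread between cows, taken for each probe as 1 spread shared by all groups in the fit.

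All probes of the 6 genes were named, plus the 10 most alike and, from each list, genes past the threshold or else the 3 with the largest absolute SCNT mean. Marker lists are given by medians and by genes past the threshold. Other named genes of the lists (CDX2 and further PAG and trophoblast genes among them), LOC281964 as PAG1 and the probes low on 4 arrays were chosen after their values were seen. Members and lists were chosen with earlier results of these data known. Alternatives covered the reading of dye and sign, IVF-ET replicate 3, centring, scaling, spots, filter, the samples fitted, arrays with the cow as a random block, and each cow left out.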

Additional observations from a re-analysis of the deposited data

How the results depend on the processing

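Over 1128 recomputed member values, 10 moved by over 1 SD and 66 changed sign. Some of these changes are no measure of stability, since 1 alternative turns the AI sign by construction. Under the dye reading, too, a sign has another meaning. Read as dye ratios, 2 members passed for AI against 0 (PAG2 at 0.42 and PAG8 at 0.58, limma adjusted p = 0.0290 and 0.0328) and 3 for all cows against 0 (PAG2 at 0.23, PAG8 at 0.31, PAG14 at 0.17, adjusted p = 0.0160, 0.0185 and 0.0445). Of these, PAG2 in AI (-0.10 as reported) and PAG2, PAG8 and PAG14 over all cows (-0.44, -0.11 and -0.092 as reported) had another sign. As no side is given a tissue, the signs of the 2 readings cannot be compared as directions. With 28 arrays, the cow as a random block and a dye term, 1 member passed for SCNT against 0, PAG2 at -1.04 (adjusted p = 0.0166), where both arrays of a cow correlated at 0.0707 and so count almost as separate cows. The other limma alternatives gave 0 members past the threshold. The exact tests against 0 could not pass at these group sizes, with smallest p-values of 0.0625 and 0.125. Those between groups, with a smallest p of 0.00794, could pass after adjustment only if several reached it. Leaving out each cow in turn gave 0 to 0 members in all 7 comparisons, with the lowest adjusted p, 0.0528, for PAG2 against 0 without SCNT replicate 5. Of the 10 most alike probes, 2 were among the 10 by Spearman's correlation, 6 without SCNT replicate 3, and 1 without SCNT replicates 3 and 4, an alternative chosen after seeing the data.

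Counts over all probes moved by more than 1.5 times. Over the alternatives they ran from 0 to 509 for SCNT against 0 (253 as reported), 0 to 279 for SCNT minus AI (134), 0 to 39 for IVF-ET minus AI (8), 0 to 106 for IVF-ET (0), 0 to 359 for AI (0) and 0 to 2146 for all cows (0), and stayed at 0 for SCNT minus IVF-ET. Leaving out 1 cow gave 43 to 319 for SCNT against 0 and 5 to 260 for SCNT minus AI. No paired analysis was possible because the replicate numbers name different cows in each group and follow accession order. The number of cows and the unknown signal over background limit the precision, and signals of low probes could not be told from background.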

Other observations

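IVF-ET replicate 3, left out of the fits, had caruncle RNA in Cy5 on both arrays per the labels, and its arrays correlated at -0.316 over all probes. Its 2 values were -0.022 and -0.14 for PAG2, 0.46 and 0.39 for PAG8, -0.068 and -0.20 for PAG9, 0.033 and -0.093 for PAG14, 0.11 and 0.19 for PAG18, and 0.11 and -0.15 for PAG19. PAG8 and PAG18 were on the positive side on both arrays, and PAG2 and PAG9 on the negative side on both. None of the 6 reached 0.5 in size. Among 180 pairs of duplicate spots of the 6 genes over the 30 arrays, the median gap was 0.130 and 12 exceeded 0.5, of which 4 belonged to PAG18, 3 to PAG9, 2 to PAG2, 2 to PAG8, 1 to PAG14 and 0 to PAG19.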
